A study of Mus musculus with 25 samples.

Results

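The genes described here encode the fibroblast growth factor (Fgf) ligands, their receptors and the Sprouty and Spred inhibitors that feed back on them. They were taken by name from mouse gene records: 20 ligand genes, 5 receptor genes and 6 inhibitor genes, or 31 of the 20665 autosomal protein-coding records of the mm10 assembly. For each gene the base pairs covered by peaks of H3K27me3 were measured over the gene record and 5 kb on each side of it, in each of 3 peak lists. H3K27me3 is trimethylation of histone H3, set by Polycomb repressive complex 2 (PRC2) and found at genes held silent. The lists came from neural progenitor cells (NPC) and from lines A and B of mouse embryonic fibroblasts (MEF).

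The NPC were derived from embryonic stem cells with a wild-type genotype and were grown with EGF and FGF2. They were profiled by CUT&RUN as 2 libraries each treated with UNC1999 at 2 uM together with A395 at 4 uM (both block PRC2), after washout of both compounds, and untreated. Both MEF lines were immortalized with c-myc and profiled by ChIP-seq, with 2 H3K27me3 libraries for each state of Ezh2, the methyltransferase of PRC2. Line A was labelled Ezh2 -/-, Ezh2 -/- with retroviral pMSCV-Ezh2, and wild-type. Line B was labelled Ezh2 -/- (reversible), Ezh2 endogenous rescue, and wild-type. The other 7 of the 25 libraries (input, RNA polymerase II, H3K4me3 and H3K36me3 of line A labelled Ezh2 -/-) gave no file used here, and the titles of these 7 name EZH2. The sources used here do not give the libraries behind a list: NPC treatments are not named, and the MEF lists are named after the wild-type together with the Ezh2 -/- samples. Inhibition, washout, Ezh2 loss and rescue were therefore not compared.

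Fgf ligands bind receptor tyrosine kinases at the cell surface together with heparan sulfate or Klotho proteins, and the receptors signal through Ras and the MAP kinases to ETS transcription factors. Sprouty and Spred proteins are induced by, or act on, this relay and restrain it. Most ligands act over short distances between tissues in the embryo, a few act as hormones, and the Fgf11 to Fgf14 group stays inside the cell and binds sodium channels. FGF2 sustains neural progenitors in culture, and fibroblasts respond to Fgf signals during growth and wound repair.

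The lists held peak positions and no heights, so the depth behind them is unknown and no difference between lists had a replicate check or a test. Peaks numbered 44807 in NPC, 86235 for line A and 81972 for line B, and covered 137, 276 and 236 Mb. Peaks do not measure RNA, but the marker genes of each cell type were checked for peaks within 5 kb of their starts. Such a peak stood at 25.5%, 33.8% and 34.0% of all records in NPC, line A and line B. Of 9 neural progenitor markers, 2 had a peak in NPC, 7 in line A and 8 in line B. Of 12 fibroblast markers, 2 had a peak in NPC, 1 in line A and 0 in line B. The counts for other cell types were 1, 2 and 2 of 4 autosomal neuron markers, 1, 2 and 1 of 4 astrocyte markers, 0, 2 and 1 of 4 pluripotency markers, 2, 4 and 1 of 4 epithelial markers, and 1, 3 and 3 of 5 blood and endothelial markers in NPC, line A and line B.

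Ligand genes carried H3K27me3 peaks in all 3 cell systems, while receptor and inhibitor genes were almost free of them. Of the 20 ligand genes, 14 had a peak in NPC, 16 had one in line A and 17 had one in line B (70.0%, 80.0% and 85.0%), where 31.9%, 40.2% and 40.9% of all records had one. Of the 5 receptor genes, 0 had a peak in NPC, 0 in line A and 1 (Fgfr3) in line B. Of the 6 inhibitor genes, 0 had a peak in NPC, 0 in line A and 1 (Spry4) in line B. Each ligand gene had a peak in at least 1 list and 11 had a peak in all 3, where 19.5% of all records did. For Fgf21 and Fgf22 this was a single narrow peak in line A beside the record (0.481 and 0.23 kb). With at least 1 kb covered, the members in no list numbered 11 and those in all lists 9. The shares of all records were not computed at that threshold. With at least 1 bp covered, as elsewhere here, a peak in 1 or 2 lists stood at 9 ligands, Fgfr3 and Spry4, and at 35.7% of all records. The remaining 4 receptor and 5 inhibitor genes had 0 bp covered in all lists, as did 44.8% of all records.

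The median share of a ligand window under peaks was 13.3% for NPC, 22.3% for line A and 23.9% for line B, and the median over all records was 0% for each list. At least 50% of the window was covered at 4, 6 and 6 of the 20 ligands in NPC, line A and line B, where 3.91%, 9.98% and 9.71% of all records reached that share. The ligand records were short, with a median of 9.29 kb against 17.5 kb for all records. With 5 kb taken on each side of the start (of both record ends for the 7 members with no listed start), 13, 15 and 15 ligands had a peak in NPC, line A and line B, where 25.5%, 33.8% and 34.0% of all records did. Of the 15 ligands with a listed start, 10 had a peak within 5 kb of it in each list, as did 24.2%, 31.9% and 32.1% of all records with a listed start. At least 50% of the start window was covered at 8, 6 and 8 ligands, where 6.47%, 11.9% and 12.6% of all records met the rule. Of the 11 receptor and inhibitor genes, 0 in NPC, 0 in line A and 1 in line B (Fgfr3) met it. For the short records of Fgf8, Fgf15, Fgf17 and Fgf20, with no listed start, the joined end windows were the whole record window. Their values around the start therefore repeat those around the record.

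**Figure D1:**
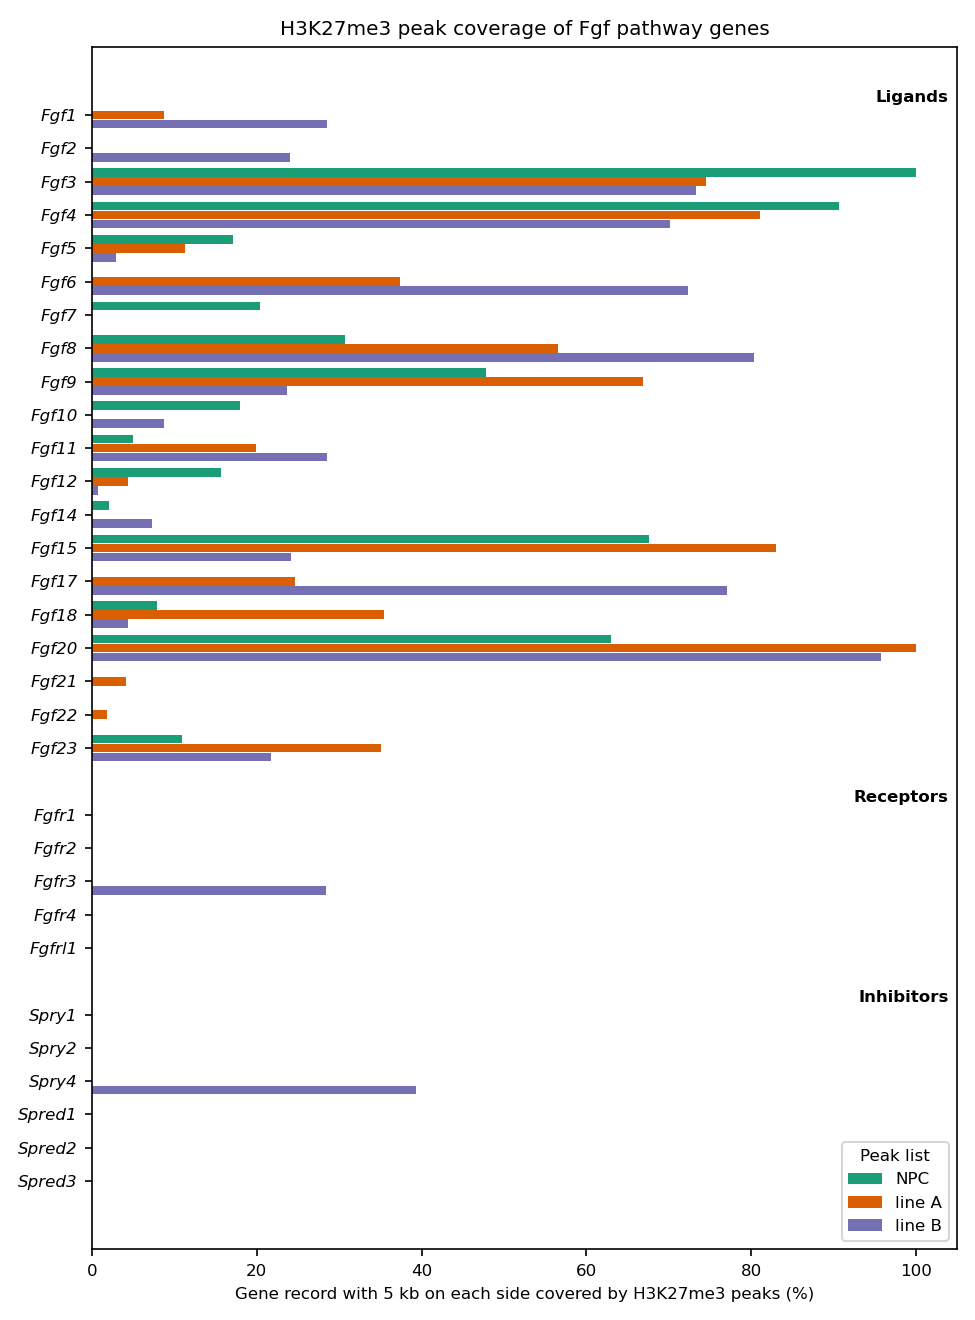
Share of each gene record with 5 kb on each side that H3K27me3 peaks cover, in percent, for the 20 ligand, 5 receptor and 6 inhibitor genes, with a bar for each peak list (NPC, line A, line B). Ligand bars reach 100% for Fgf3 in NPC and Fgf20 in line A, while Fgfr3 and Spry4 in line B are the only receptor and inhibitor genes with a bar.

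**Figure D2:**
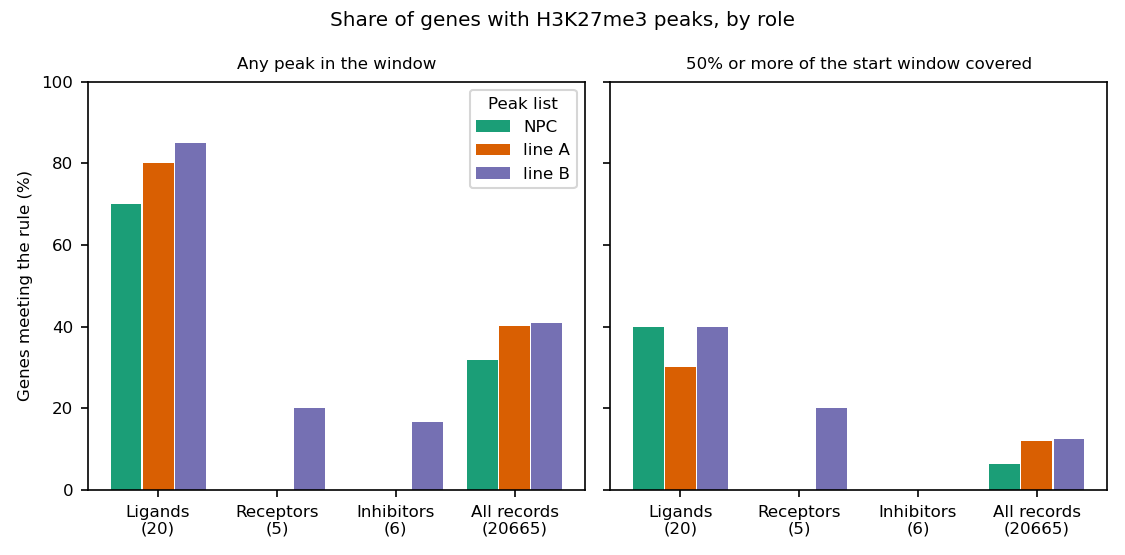
Percent of genes in each role with any H3K27me3 peak over the record and 5 kb on each side (left) and with at least 50% of the 5 kb on each side of the start covered (right), for each peak list, beside all 20665 records. Ligand bars stand between 70.0% and 85.0% on the left and between 30.0% and 40.0% on the right, above the bars of all records in every list.

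The promoters below are examples of members covered around the start in all lists, in some lists or in none. They are RefSeq windows of assembly GRCm38.p6 from 250 bases before to 50 bases after a gene's most upstream listed start, written 5' to 3' on the gene's strand, with each CpG in capitals. Such a window was listed for 24 of the 31 members. Fgf3 and Fgf4 are shown because, of the members with a listed start, they had the largest coverage around it in the list where it was lowest. Fgf12 and Fgf2 differed most between lists. Spred1 and Fgfrl1 had the most CpG among the members with 0 bp around the start in every list.
Fgf3 (chr7:144838362-144838661, plus strand): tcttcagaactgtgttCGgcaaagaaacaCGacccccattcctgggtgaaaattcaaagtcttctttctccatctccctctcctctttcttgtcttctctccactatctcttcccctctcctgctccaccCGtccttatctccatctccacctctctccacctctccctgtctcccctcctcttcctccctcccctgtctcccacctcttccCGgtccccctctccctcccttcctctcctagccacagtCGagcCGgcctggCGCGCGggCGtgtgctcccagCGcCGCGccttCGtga
Fgf4 (chr7:144861136-144861435, plus strand): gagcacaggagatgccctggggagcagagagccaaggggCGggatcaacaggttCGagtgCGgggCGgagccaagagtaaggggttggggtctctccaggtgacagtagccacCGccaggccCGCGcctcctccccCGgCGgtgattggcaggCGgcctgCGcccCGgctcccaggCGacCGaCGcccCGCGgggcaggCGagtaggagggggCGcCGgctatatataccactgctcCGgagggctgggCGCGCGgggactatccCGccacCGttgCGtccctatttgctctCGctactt
Fgf12 (chr16:28753194-28753493, minus strand): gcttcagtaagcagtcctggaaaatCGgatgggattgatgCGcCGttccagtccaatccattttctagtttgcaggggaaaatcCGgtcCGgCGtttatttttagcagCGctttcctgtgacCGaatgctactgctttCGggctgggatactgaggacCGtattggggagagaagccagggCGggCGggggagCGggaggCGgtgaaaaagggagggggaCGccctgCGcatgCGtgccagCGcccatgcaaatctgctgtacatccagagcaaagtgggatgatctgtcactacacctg
Fgf2 (chr3:37348403-37348702, plus strand): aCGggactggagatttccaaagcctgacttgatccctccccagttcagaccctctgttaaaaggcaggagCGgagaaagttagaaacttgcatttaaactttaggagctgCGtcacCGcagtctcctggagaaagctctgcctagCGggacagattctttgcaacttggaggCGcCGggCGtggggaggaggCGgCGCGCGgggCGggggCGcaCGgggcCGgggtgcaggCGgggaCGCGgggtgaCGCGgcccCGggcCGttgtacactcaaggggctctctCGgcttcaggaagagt
Spred1 (chr2:117120821-117121120, plus strand): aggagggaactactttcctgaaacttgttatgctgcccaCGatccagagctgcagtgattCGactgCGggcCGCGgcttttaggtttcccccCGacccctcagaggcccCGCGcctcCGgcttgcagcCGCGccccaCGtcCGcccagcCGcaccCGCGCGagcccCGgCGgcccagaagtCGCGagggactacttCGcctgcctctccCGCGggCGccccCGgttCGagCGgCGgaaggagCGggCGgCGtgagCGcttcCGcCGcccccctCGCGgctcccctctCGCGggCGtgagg
Fgfrl1 (chr5:108693979-108694278, plus strand): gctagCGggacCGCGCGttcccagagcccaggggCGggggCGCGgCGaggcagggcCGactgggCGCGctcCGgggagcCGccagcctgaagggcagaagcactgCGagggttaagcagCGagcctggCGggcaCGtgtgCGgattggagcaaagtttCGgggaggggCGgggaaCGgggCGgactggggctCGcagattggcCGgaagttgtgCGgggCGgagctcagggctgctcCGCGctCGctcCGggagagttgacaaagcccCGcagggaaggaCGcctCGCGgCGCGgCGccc

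Among members with a listed start, the median promoter of the 15 ligands held 12 CpG (range 5 to 47). That of the 4 receptors held 23 (4 to 37) and that of the 5 inhibitors 28 (8 to 40), so the ranges overlapped widely. The printed promoters held 14 CpG (Fgf3), 28 (Fgf4), 18 (Fgf12), 24 (Fgf2), 40 (Spred1) and 37 (Fgfrl1), and the median promoter of all 16457 records with a listed start held 14. The 9 members with 0 bp around the start in every list had a median of 20 CpG, and the 15 with a peak there in at least 1 list had a median of 14. Among all records the promoters under a peak had a median of 13, 7 and 9 CpG in NPC, line A and line B, against 14, 15 and 15 for those with no peak. The most CpG-rich member promoter was that of Fgf18 with 47, which line A peaks covered in full and NPC and line B peaks not at all. CCGGAA, a core of ETS factor sites, stood on either strand in 4 of 24 member promoters (Fgf5, Fgfr4, Fgfrl1 and Spry2) and in 19.6% of all promoters. Each CCGGAA holds a CpG of its own. TATAAA, the core of the TATA box, stood on either strand in 2 (Fgf5 and Fgf21) and in 13.5% of all promoters, and its letters cannot overlap CCGGAA.

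Fgf3, Fgf4 and Fgf15 neighbour each other on chromosome 7 and had peaks in all lists. Fgf3 acts in the inner ear and tail, Fgf4 is the ligand of the early epiblast and of the limb ridge, and Fgf15 is the gut hormone that restrains bile acid synthesis. The Fgf3 window (record at 144838612 to 144843348) was covered over 14.7 kb in NPC, 11.0 kb in line A and 10.8 kb in line B, which is 100%, 74.5% and 73.3% of it. Only 0.474% of all records had as large a share covered in NPC, and 4.63% and 4.95% in line A and line B. The Fgf4 window (record at 144861386 to 144865245) was covered over 12.6 kb in NPC, 11.2 kb in line A and 9.72 kb in line B. Both records and both promoters printed above lay wholly under peaks in each list. The Fgf15 window (record at 144896532 to 144900953) was covered over 9.75 kb in NPC, 12.0 kb in line A and 3.48 kb in line B, so it was the least marked of the 3 genes in line B.

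The whole 72.3 kb from 5 kb before Fgf3 to 5 kb after Fgf15 was covered over 90.7% in NPC by 4 peaks, 68.3% in line A by 9 peaks and 35.2% in line B by 7 peaks. In NPC a peak of 32.2 kb over Fgf3 and a peak of 32.7 kb over Fgf4 made up most of the block, while in line B the sequence between the genes was mostly uncovered. Chromosome 7 itself differed between the lists: peaks covered 14.9% of it in NPC, the most of any of 19 chromosomes, 10.4% in line A and 3.54% in line B, the least of any. The part of that difference in the values of the 6 members on this chromosome was not tested.

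**Figure D3:**
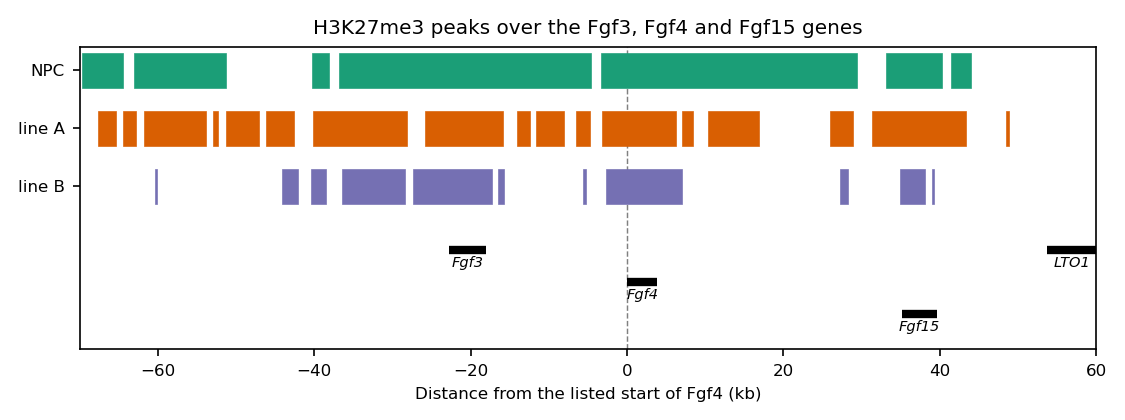
H3K27me3 peaks of each list (coloured bars) and gene records (black bars) by distance in kb from the listed start of Fgf4 (dashed line). NPC peaks of 32.2 and 32.7 kb run over Fgf3 and Fgf4 almost without a gap, whereas line B peaks sit over Fgf3, Fgf4 and a part of Fgf15 and leave most of the sequence between the genes uncovered.

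Fgf9 and Fgf20, secreted ligands of a common subfamily that act in lung mesenchyme and the inner ear, were also marked in each list. Fgf20 (chromosome 8, 40279166 to 40286953) was covered over 11.2 kb in NPC, 17.8 kb in line A and 17.0 kb in line B, or 63.0%, 100% and 95.7% of its window. All of its NPC coverage was shared, since the 3 lists had 11.2 kb in common there. Fgf9 (chromosome 14, 58070671 to 58112854) was covered over 25.0 kb in NPC, 34.9 kb in line A and 12.4 kb in line B. A peak of 22.9 kb in NPC and one of 11.0 kb in line A spanned its listed start and took in its whole 300-base promoter window. In line B a peak began 0.011 kb after the start and covered 39 of the 300 bases.

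Fgf8, Fgf17 and Fgf18 form the subfamily that patterns the midbrain, limb and skeleton. Fgf8 (chromosome 19, 45736491 to 45742941) was covered over 5.06 kb in NPC, 9.30 kb for line A and 13.2 kb for line B, and the NPC peak lay within the part that both MEF lines covered as well. In line B 1 peak of 18.6 kb took in the whole record. Fgf17 (chromosome 14, 70636203 to 70642268) was covered over 0 kb in NPC, 3.96 kb for line A and 12.4 kb for line B, and the nearest NPC peak lay 76.3 kb from the record. Of the line B coverage, 3.27 kb lay over the neighbouring Dmtn record. Fgf18 (chromosome 11, 33116970 to 33147400) was covered over 3.19 kb in NPC, 14.3 kb in line A and 1.77 kb in line B. The NPC and line B peaks lay wholly beyond its 3' end, and in line A a peak of 1.56 kb sat at the start.

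Fgf1 and Fgf2, broadly acting ligands without a classical secretion signal, were unmarked in NPC and differed between the MEF lines. Fgf2 (chromosome 3, 37348477 to 37410106), whose protein is supplied in the NPC medium, was covered over 0 kb in NPC, 0 kb in line A and 17.2 kb in line B. A peak of 11.0 kb in line B ran from -7.75 kb to 3.25 kb relative to its start and held the whole promoter. The nearest peak lay 934 kb from the record in NPC and 51.6 kb away in line A. Fgf1 (chromosome 18, 38838672 to 38929470) was covered over 0 kb in NPC, 8.79 kb in line A and 28.7 kb in line B, the last spread over 23 peaks of at most 4.36 kb. The Fgf1 window lies within the record of Arhgap26, so these peaks cannot be assigned to either gene by position.

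Fgf7 and Fgf10, mesenchymal ligands that signal to epithelia through Fgfr2, were marked in NPC and had 0 bp covered in line A. Fgf7 (chromosome 2, 126034658 to 126091185) was covered over 13.6 kb in NPC, 0 kb in line A and 0 kb in line B. The largest of its 6 NPC peaks, of 8.42 kb, lay at the 3' end of the record, and 2.05 kb lay within 5 kb of the start, none of it over the promoter window. The whole Fgf7 window is also part of the Fam227b record. Fgf10 (chromosome 13, 118714699 to 118792573) was covered over 15.7 kb in NPC, 0 kb in line A and 7.63 kb in line B, with a peak over its promoter in NPC (11.1 kb) and in line B (5.85 kb). The nearest line A peak lay 297 kb away. Fgf22, a synaptic ligand of the same subfamily, was covered over 0 kb in NPC, 0.23 kb in line A and 0 kb in line B, the lowest total over the lists of any ligand gene.

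**Figure D4:**
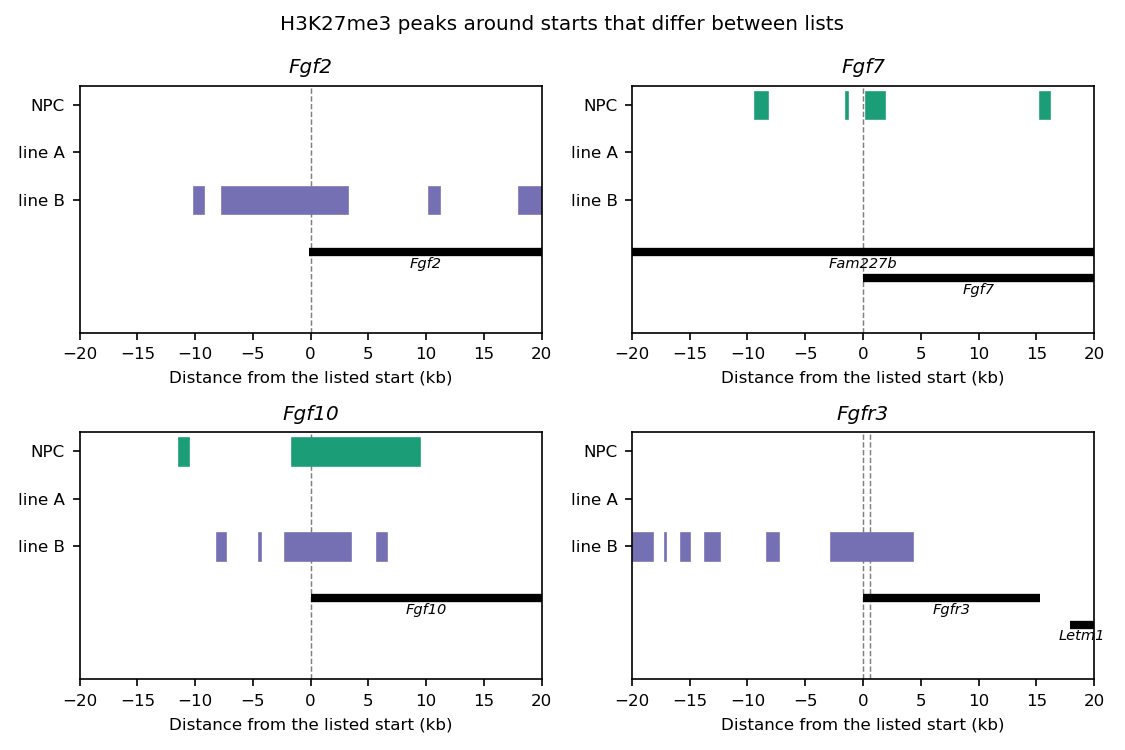
H3K27me3 peaks of each list (coloured bars) and gene records (black bars) within 20 kb of the listed starts (dashed lines) of Fgf2, Fgf7, Fgf10 and Fgfr3, by distance in kb along the direction of transcription. Fgf2 and Fgfr3 have peaks over the start in line B alone, Fgf10 in NPC and line B, and Fgf7 has peaks in NPC alone.

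Fgf5 and Fgf6, of the Fgf4 subfamily, ran in opposite orders across the lists. Fgf5 (chromosome 5, 98254184 to 98277033), which ends the growth phase of hair, was covered over 5.62 kb in NPC, 3.69 kb for line A and 0.943 kb for line B, and its NPC peak began at -0.022 kb relative to the start. Fgf6 (chromosome 6, 127015542 to 127024718), a ligand of skeletal muscle, was covered over 0 kb in NPC, 7.17 kb in line A and 13.9 kb in line B, or 72.4% of the window in line B. Its neighbour Fgf23, the bone hormone that lowers phosphate, was covered over 2.13 kb in NPC, 6.81 kb in line A and 4.21 kb in line B. The span of 76.8 kb that holds both was covered over 2.77%, 25.2% and 48.9% in NPC, line A and line B. Fgf21, the fasting hormone of the liver, was covered over 0 kb in NPC, 0.481 kb in line A and 0 kb in line B.

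Among the intracellular factors, Fgf12 and Fgf14 have records of 595 and 703 kb, so any peak in them is a weak criterion, and the starts were examined instead. Fgf12 (chromosome 16, 28157783 to 28753243) was covered over 95.1 kb in NPC by 26 peaks, 26.7 kb in line A by 17 peaks and 4.68 kb in line B by 4 peaks. NPC peaks covered the promoter windows at all 4 listed starts, with 5.80 to 10.0 kb of the 10 kb around each start. Line A peaks covered the most upstream promoter, with 2.81 kb of the 10 kb, and 0 kb around the other 3 starts. Line B peaks covered 0 kb around all 4 starts. No base pair of the Fgf12 window was covered in all 3 lists, although each list had peaks in it.

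Fgf14 (chromosome 14, 123974441 to 124677686) was covered over 14.5 kb in NPC by 8 peaks, 0 kb in line A and 51.5 kb in line B by 40 peaks. Its listed start lies well inside the record, and within 5 kb of that start NPC peaks covered 4.80 kb, line A peaks 0 kb and line B peaks 4.45 kb. The 300-base promoter window lay under a peak in NPC only. The line B peaks were narrow, at most 4.56 kb, and lay on both sides of the start. Fgf11 (chromosome 11, 69796068 to 69802944), the shortest gene of the 3, was covered over 0.841 kb in NPC, 3.36 kb in line A and 4.81 kb in line B, with a peak over the start in each.

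**Figure D5:**
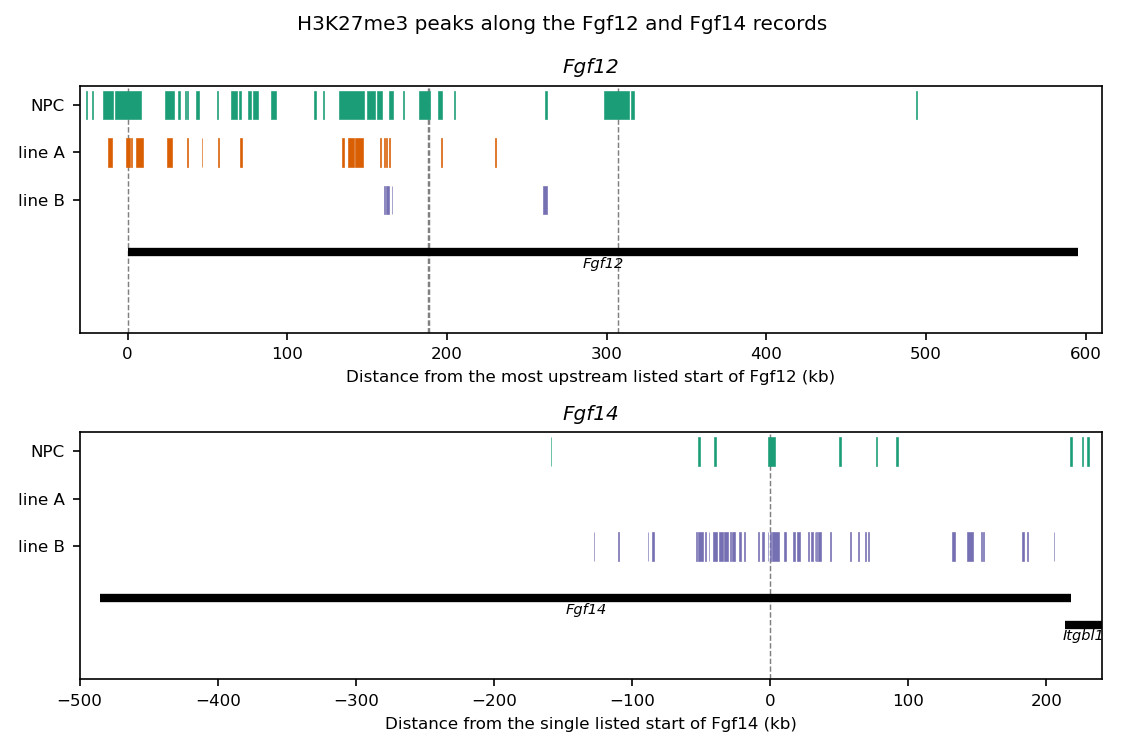
H3K27me3 peaks of each list (coloured bars) along the Fgf12 and Fgf14 records (black bars), by distance in kb from the listed start named on each axis, along the direction of transcription, with dashed lines at all listed starts. NPC peaks stand at all 4 listed starts of Fgf12, and line B peaks crowd around the listed start of Fgf14, where line A has 0 peaks.

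The receptor genes were free of peaks except in line B. Fgfr1 (chromosome 8, 25518759 to 25575718), a main receptor of mesenchyme and neural tissue, and Fgfr2 (chromosome 7, 130162451 to 130266808), the receptor for Fgf7 and Fgf10 in epithelia, had 0 bp covered in each list. The nearest peak to the Fgfr1 record lay 282 kb away in NPC, 255 kb for line A and 116 kb for line B, and that to the Fgfr2 record 38.6, 291 and 581 kb away. Fgfr4 (chromosome 13, 55152818 to 55168759), the liver receptor for Fgf15, and Fgfrl1 (chromosome 5, 108694229 to 108706950), which lacks a kinase domain, also had 0 bp in each list. Fgfr3 (chromosome 5, 33721724 to 33737068), which restrains bone growth, had 0 kb covered in NPC, 0 kb in line A and 7.19 kb in line B. That coverage was 1 peak from -2.85 kb to 4.35 kb relative to the start, over both listed promoters. The nearest peak to the Fgfr4 record lay 194 kb away in NPC, 133 kb for line A and 133 kb for line B, and that to the Fgfrl1 record 22.2, 20.6 and 29.9 kb away.

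The inhibitor genes followed the receptors. Spry1, Spry2, Spred1, Spred2 and Spred3, which hold back Ras signalling downstream of the receptors, had 0 bp covered in each list. The distance from these records to the nearest peak ranged between 15.0 and 1448 kb in NPC, with Spred3 nearest and Spred2 farthest. In line A it ranged between 6.04 kb for Spred3 and 610 kb for Spry2, and in line B between 10.6 kb for Spry2 and 101 kb for Spred2. Spry4 (chromosome 18, 38586247 to 38601347) had 0 kb covered in NPC, 0 kb in line A and 9.86 kb in line B, in 3 peaks of which the widest measured 6.64 kb. The line B peaks lay at the right end of the record, with 7.71 kb within 5 kb of it and 0 kb at the left end, and 3.21 kb of them lay over the neighbouring Arhgap26 record. No strand was listed for Spry4, so its start and its 3' end were not told apart.

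Other genes of the pathway were taken as 5 lists of relay proteins, targets, other modulators, co-receptors with heparan sulfate genes, and the EGF family. The 46 autosomal genes outside the EGF family had a peak around the start at 8 in NPC, 11 in line A and 10 in line B, where 25.5%, 33.8% and 34.0% of all records did. Of the 17 relay genes 1, 3 and 2 had a peak and 0 were covered over at least 50% in any list. Ptpn11, a phosphatase that relays the receptor signal, was covered over 1.43, 1.76 and 0 kb in NPC, line A and line B, and the docking protein gene Frs3 over 0, 0 and 1.68 kb. Of the 8 targets, 1, 2 and 3 had a peak. The ETS factor genes of the pathway had the largest values summed over the lists: Etv4 was covered over 3.50 kb in NPC, 3.60 kb in line A and 7.51 kb in line B, Etv1 over 0, 0 and 6.18 kb and Etv5 over 0, 0 and 5.32 kb.

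Around the start, 25.5%, 33.8% and 34.0% of all records had a peak in NPC, line A and line B. Among the 10 other modulators, 3 had a peak in each list. In NPC and line B these were Flrt1, Flrt2 and Flrt3, and in line A they were Flrt1, Flrt3 and Dusp4. The Flrt genes encode adhesion proteins that bind Fgf receptors. Flrt1 was covered over 16.8, 6.94 and 3.78 kb, Flrt3 over 8.58, 0.449 and 4.14 kb and Flrt2 over 8.50, 0 and 0.704 kb in NPC, line A and line B. Flrt1, Dusp4, Etv4, Gpc1, Nrg2 and Erbb3 had no listed start, so their values join the windows at both record ends. Of the feedback phosphatase genes, Dusp4 was covered over 0, 1.68 and 0 kb, and Dusp5 and Dusp6 over 0 kb in each list. Of 11 autosomal co-receptor and heparan sulfate genes, 3, 3 and 2 had a peak. Gpc1 was covered over 3.59, 5.16 and 0 kb, and the Klotho genes Kl and Klb, co-receptors of the hormonal ligands, over 0, 1.05 and 6.07 kb and over 0, 0.824 and 6.03 kb. Of the 17 genes of the EGF family, 6 had a peak in NPC, 8 in line A and 8 in line B, beside the same shares of all records. Of its 11 ligand genes, 3 had a peak in NPC, 6 in line A and 5 in line B. Of its 4 receptor genes, 3 had one in NPC, 2 in line A and 3 in line B, while of the 5 Fgf receptor genes 0, 0 and 1 did. The 2 EGF family inhibitor genes had 0 peaks around the start in each list, and of the 6 Fgf inhibitor genes 0, 0 and 1 had one. The largest values in kb, summed over the lists, were at the ligand gene Nrg2 (0, 11.3 and 12.4 kb), the receptor gene Erbb4 (10.0, 1.11 and 10.0 kb) and the ligand gene Egf (0, 10.0 and 10.0 kb). The joined windows of Nrg2 are wider than those of Erbb4 and Egf, so this order is not one of covered share. Of the other receptor genes, Erbb3 was covered over 4.44, 9.83 and 1.87 kb, Erbb2 over 1.26, 0 and 0.829 kb, and Egfr over 0 kb in each list.

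The lists shared a part of the ligand coverage. Peaks covered 229 kb of the ligand windows in NPC, 172 kb in line A and 214 kb in line B. The long Fgf12 record with its flanks held 95.1, 26.7 and 4.68 kb of these totals, and that of Fgf14 held 14.5, 0 and 51.5 kb. The totals and the shared parts therefore depend much on these long records, and their order need not be that of most ligands. NPC and line A shared 98.0 kb, which is 42.8% of the NPC and 57.1% of the line A coverage. NPC and line B shared 69.2 kb (30.2% and 32.3%), and line A and line B shared 84.3 kb (49.1% and 39.3%). Over all record windows NPC shared 44.4% of its coverage with line A (21.8% of line A) and 36.6% with line B (21.2% of line B). Line A shared 48.6% of its coverage with line B (57.1% of line B). All 3 lists had 52.3 kb of the ligand windows in common, most of it at Fgf20 (11.2 kb), Fgf9 (9.87 kb), Fgf3 (9.20 kb), Fgf4 (9.0 kb), Fgf8 (5.06 kb) and Fgf15 (3.48 kb). Between NPC and the MEF lines the assay, the number of peaks, immortalization with c-myc and the Ezh2 states named for a list changed along with the cell type. These cannot be told apart.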

How the data were processed

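The deposited files used were 3 peak lists, each holding the chromosome, start and end of a peak in base pairs, with no other number. They were read as BED (starts counted from 0) and are printed counted from 1. MACS2 2.1.1.20160309, Bowtie2 2.2.9, deepTools, Picard and DESeq2 are named in the submitters' processing notes, as are the dm6 and mm10 assemblies, without their roles. The sources used here do not give the peak threshold, the control or whether replicates were pooled. The lists hold peaks on autosomes only.

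Gene records came from RefSeq (assembly GRCm38.p6, which mm10 is built on), and strands, starts and promoter sequences from a RefSeq promoter table of the same assembly. It lists a start for 16457 records and 24 members, and the most upstream was used. Exons and introns were not used here. A member had a peak where at least 1 bp of its record with 5 kb on each side was covered. Overlapping windows of neighbouring genes can share a peak. For 14 members the window held another protein-coding record.

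The members, the lists and the windows were chosen with earlier results of these data known. Named in full were all receptors and inhibitors, the 5 ligands with the largest covered share in each list, ligands with at least 5 kb in a list and 0 bp in another or 0 bp in all lists, and up to 3 genes of each other list by coverage around the start; Dusp4, Dusp5, Dusp6, Egfr, Erbb2, Erbb3 and the remaining ligands were added after their values were seen, and 1 gene that the rule names is not reported here. No test was made, since no list is a sample with a replicate. Alternatives were other windows, stricter or joined peaks, lists of equal size and the autosomes without chromosome 7. Coverage was computed with Python 3.11.15, numpy 2.4.6 and pandas 2.3.3 and tested on simulated data.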

Additional observations from a re-analysis of the deposited data

How the results depend on the processing

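No paired analysis was possible because the peak lists carry no replicate, and leaving out a replicate was not possible for the same reason. The ligand counts stayed within 1.5 times the reported ones under every window, peak and chromosome setting that kept a threshold of at most 1 kb covered. With 50% of the window required they were 4, 6 and 6 in NPC, line A and line B around the record and 8, 6 and 8 around the start. In line B the counts for receptors and for inhibitors around the record were then both 0, and that for inhibitors around the start was 0, as it was with listed starts only (an alternative chosen after seeing the data, since Spry4 has none listed). With 10 kb on each side, 1 inhibitor had a peak in line A. Shares of all records were computed for the 5 kb windows, the 50% rules and listed starts only. Under the other settings, the counts do not show how the members stood against all records.

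The median covered share of ligands in NPC, line A and line B was 15.6%, 28.3% and 23.8% with 2 kb on each side, 14.6%, 24.1% and 22.0% with 10 kb, 16.6%, 26.6% and 23.4% over the record alone, 11.5%, 16.8% and 22.1% with peaks of at least 1 kb, 14.0%, 24.0% and 29.0% with peaks less than 3 kb apart joined, and 9.43%, 15.6% and 22.7% without chromosome 7. With the 44807 widest peaks of each list it was 16.8% in line A and 22.3% in line B. Of the 46 pathway genes outside the EGF family, 3, 0 and 4 had at least 50% of the start window covered, where 6.47%, 11.9% and 12.6% of all records did. In line A 5 had a peak within 2 kb and 7 with the widest peaks. Of the 17 EGF family genes, 2, 3 and 3 were at least 50% covered, beside the same shares of all records. In line B 5 of them had a peak with 2 kb taken. Members with a peak in no list numbered 11, against 9 as reported, with 1 kb covered, with peaks of at least 1 kb or with the widest peaks, and those in all lists 9, 9 and 10, against 11. The causes were not tested. Shares of all records were not computed with 2 kb taken, 1 kb covered, peaks of at least 1 kb or the widest peaks.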
